A study of Mus musculus with 2116 samples.

Results

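The 10 genes described here, Pcna, Rrm2, Tyms, Mki67, Top2a, Stmn1, H2afz, Hmgb2, Tubb5 and Tuba1b, are RNAs commonly read as signs of proliferation. They were taken by name from the 23725 genes of a single-cell count table, and all 10 were in it. The table covers CD4+ T cells from the spleen of male B6 Foxp3-Ires-Gfp mice aged 8 months, in which green fluorescent protein reports Foxp3. Live TCRb+ CD4+ cells were sorted and encapsulated in droplets by inDrops, which tags each captured RNA with a unique molecular identifier (UMI). The Foxp3+ regulatory T cell (Treg) library held 816 cells and the Foxp3- conventional T cell (Tconv) library held 1300 cells. The stated sort gate names GFP+ cells for both populations, so Foxp3 was used to check the labels: it had 558 UMIs in the Treg library, in 36.4% of cells, and 6 UMIs in the Tconv library, in 0.462% of cells. There was 1 library per population and the labels name no animals, so no p-value was computed, and the intervals below are 95% intervals that cover counting error only.

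The Treg library held 1468203 UMIs, with a median of 1688.5 UMIs per cell, and the Tconv library held 2002752, with a median of 1510.5. Sequencing was deeper per molecule in Treg, with a median of 31.8 mapped reads per UMI in Treg and 19.1 in Tconv. Cells with at least 3 UMIs of a marker list of another cell type (platelets, red cells, myeloid cells, plasmacytoid dendritic cells, B cells, plasma cells, or CD8 and NK cells) made up 12.9% of Treg and 5.08% of Tconv. The libraries shared 12 cell barcodes, and Scrublet called 1 Treg cell and 12 Tconv cells as doublets.

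A dividing cell copies its DNA in S phase and separates the copies after G2 in mitosis. Genes for DNA synthesis are switched on by E2F factors as a cell enters S phase, and genes for mitosis are switched on later by complexes that bind CHR elements in their promoters. Most CD4+ T cells in the spleen rest outside the cycle, and regulatory T cells are known to include a larger cycling fraction than naive conventional cells. Pcna is the sliding clamp of the replicative polymerases and also serves DNA repair. Rrm2 is the small subunit of ribonucleotide reductase and Tyms is thymidylate synthase, so both supply nucleotides for DNA synthesis. Mki67 coats mitotic chromosomes, Top2a untangles sister chromatids, and Stmn1 destabilises microtubules. These 6 genes are called restricted here, because their RNA is commonly tied to S phase or G2 and mitosis. The other 4 are broadly expressed: H2afz encodes a histone variant, Hmgb2 a DNA-bending chromatin protein, and Tubb5 and Tuba1b encode subunits of the microtubule.

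Promoter windows from 250 bases before to 50 bases after the annotated start were at hand for 9 of the 10 genes, from RefSeq on GRCm38.p6. The letters of a CHR, TTTGAA or TTCGAA on either strand, were found in 3 of the 9 windows, those of Mki67, Top2a and Hmgb2, against 19.2% of all 32851 windows of 300 bases. CCAAT on either strand was found in 7 of 9 windows, against 37.4% of all. The 8-base E2F spellings TTTCCCGC, TTTGGCGC, TTTCGCGC and TTTGCCGC were found in 0 of 9 windows and in 2.26% of all; this says only that these letters are not in these windows. The 3 windows with CHR letters are shown, up to the last base before the start, because these 3 genes had some of their highest counts in the same Tconv cell, described below. That cell, number 794, also held the highest Tconv counts of Tubb5 (25 UMIs) and Tuba1b (14 UMIs), whose windows held no CHR letters. It held the highest Tconv count of Stmn1 (9 UMIs), which had no window at hand, while Top2a was highest in another cell. A link between CHR letters and these counts was not tested. CHR letters are in capitals, and all 3 sequences run 5′ to 3′ on the gene's strand. They lie at chr7:135716380-135716629 on the minus strand for Mki67, chr11:99024190-99024439 on the minus strand for Top2a and chr8:57511593-57511842 on the plus strand for Hmgb2.
Mki67: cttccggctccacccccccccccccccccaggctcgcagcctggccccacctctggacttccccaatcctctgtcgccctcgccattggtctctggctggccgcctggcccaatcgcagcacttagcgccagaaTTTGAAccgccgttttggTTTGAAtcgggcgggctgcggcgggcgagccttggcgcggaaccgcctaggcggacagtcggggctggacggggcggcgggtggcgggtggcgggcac
Top2a: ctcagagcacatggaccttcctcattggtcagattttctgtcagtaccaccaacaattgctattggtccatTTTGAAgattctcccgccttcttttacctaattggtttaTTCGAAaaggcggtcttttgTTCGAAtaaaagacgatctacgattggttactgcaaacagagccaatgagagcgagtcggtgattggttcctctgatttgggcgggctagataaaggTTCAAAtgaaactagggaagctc
Hmgb2: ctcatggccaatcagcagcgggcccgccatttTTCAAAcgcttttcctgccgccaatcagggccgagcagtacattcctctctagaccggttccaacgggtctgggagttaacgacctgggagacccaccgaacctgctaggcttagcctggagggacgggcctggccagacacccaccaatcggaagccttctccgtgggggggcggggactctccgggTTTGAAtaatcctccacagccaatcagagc
Top2a held 4 such stretches, and Mki67 and Hmgb2 held 2 each.

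The 10 genes did not move one way between the libraries. Levels are given in CPM, the UMIs of a gene per 1000000 UMIs of its library. Of the 9 genes that reached 20 UMIs when the libraries were added up, 3 were at least 2-fold higher in Treg (Rrm2, Tyms and H2afz) and 2 were at least 2-fold lower (Top2a and Stmn1). With ribosomal protein genes left out of the totals or with TMM factors, Tyms (log2 ratios of 0.98 and 0.96) and H2afz (0.98 and 0.96) were just under 2-fold, which left Rrm2 alone among the higher. The same calls were made for 8.61% (higher in Treg) and 3.60% (lower in Treg) of all 8988 genes that reached 20 UMIs. The median log2 ratio of Treg over Tconv was 0.02 over the 9 genes, against 0.14 over all 8988 genes. That median over all genes moved to 0.01 when ribosomal protein genes were left out of the totals and to -0.02 with TMM factors, so ratios near 0 have no settled sign.

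Among the genes of DNA synthesis, Pcna was lower in Treg. The 2 genes of nucleotide supply had higher values there, on few UMIs and with intervals that reached 0 in some settings. Pcna stood at 220 CPM in Treg and 303.6 CPM in Tconv, a log2 ratio of -0.46 (interval -0.66 to -0.27). Rrm2 had 29 UMIs in 21 Treg cells and 12 UMIs in 10 Tconv cells, or 19.7 CPM in Treg and 5.99 CPM in Tconv, a log2 ratio of 1.72 (0.71 to 2.83). The interval of Rrm2 lay above 0, but with cells thinned to 1000 UMIs it ran from -0.10 to 3.18. Tyms was seen as 1 UMI each in 19 Treg cells and 12 Tconv cells, or 12.9 CPM in Treg and 5.99 CPM in Tconv, a log2 ratio of 1.11 (-0.01 to 2.29). With all UMIs the interval of Tyms reached 0, so its difference was within counting error. With cells thinned to 1000 UMIs its log2 ratio was 1.69 (0.30 to 3.22), on 15 Treg cells and 7 Tconv cells.

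Among the genes of G2 and mitosis, Stmn1 was lower in Treg, and Mki67 could not be placed at this depth. Stmn1 was seen in 21 Treg cells and 86 Tconv cells, at 24.5 CPM in Treg and 63.4 CPM in Tconv. It was 2.59-fold lower in Treg, with a log2 ratio of -1.37 (-1.95 to -0.83). Without the cells that held at least 2 restricted genes, the log2 ratio of Stmn1 was -2.48. Stmn1 is itself counted in that filter, which took out 66.7% of its Treg UMIs and 28.3% of its Tconv UMIs. The wider gap is therefore built into the filter. Top2a had 8 UMIs in 7 Treg cells and 25 UMIs in 17 Tconv cells, or 5.45 CPM in Treg and 12.5 CPM in Tconv, with an interval from -2.55 to -0.00 on the log2 scale. After cells were thinned to 1000 UMIs its log2 ratio was -0.55 (-2.43 to 1.09), which includes 0. A single Tconv cell, number 859, carried 6 of the 25 Top2a UMIs. Mki67 had 8 UMIs in 7 Treg cells and 11 UMIs in 8 Tconv cells, or 5.45 CPM in Treg and 5.49 CPM in Tconv. Its log2 interval ran from -1.53 to 1.44, so a difference of 2-fold either way would not have been seen.

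Of the broadly expressed genes, H2afz differed between the libraries and the other 3 lay close to equal. H2afz had 789 UMIs in Treg and 498 UMIs in Tconv, or 537 CPM in Treg and 248.7 CPM in Tconv, a log2 ratio of 1.11 (0.95 to 1.28). Both the share of cells and the amount per cell were larger in Treg: 36.4% of Treg cells and 26.2% of Tconv cells had a UMI, and 50 Treg cells and 5 Tconv cells had at least 5 UMIs. The log2 ratio was 0.03 for Hmgb2, -0.13 for Tubb5 and 0.02 for Tuba1b, and with TMM factors Tubb5 was at -0.28 and Tuba1b at -0.13. These 3 genes had 170, 604 and 532 CPM in Treg and 166.3, 659 and 523 CPM in Tconv. The restricted genes summed to 288.1 CPM in Treg and 397 CPM in Tconv, a log2 ratio of -0.46 (-0.64 to -0.29), most of which was Pcna. The broad genes summed to 1844 CPM in Treg and 1597 CPM in Tconv, a log2 ratio of 0.21 (0.13 to 0.28), a difference that came from H2afz. With TMM factors the ratio of this sum was 0.05 (-0.02 to 0.13), which includes 0.

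**Figure D1:**
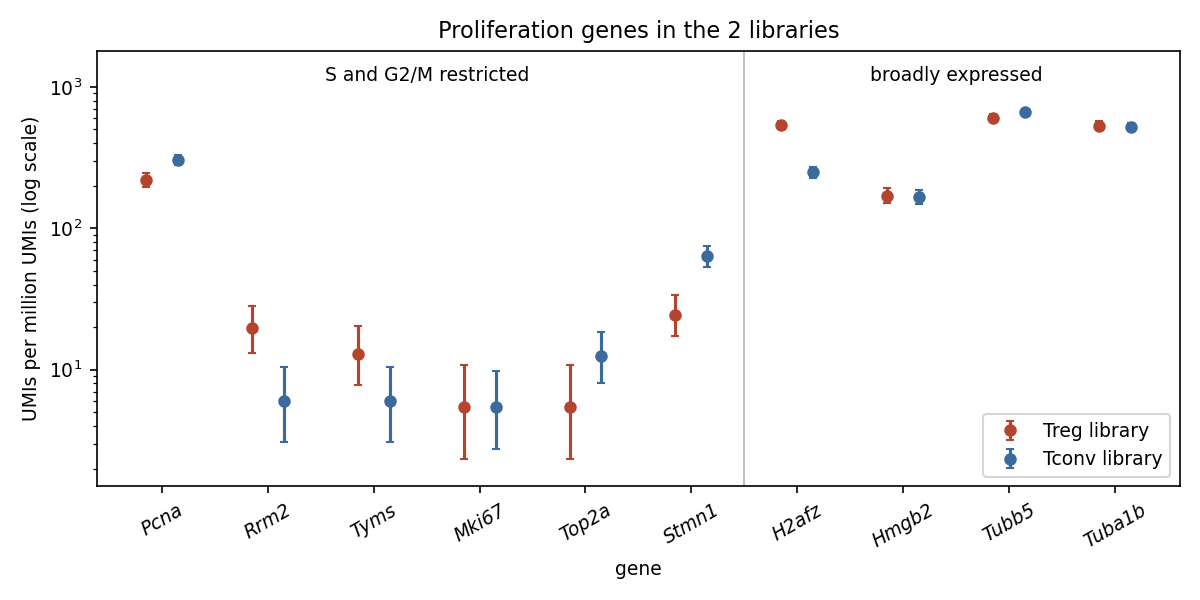
Level of each gene in UMIs per 1000000 UMIs of the library, on a log axis, with points for the Treg library on the left and the Tconv library on the right of each pair and bars for exact Poisson 95% intervals. The intervals of Pcna, Stmn1, Rrm2 and H2afz do not overlap between libraries, and those of Mki67 cover nearly the same range.

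A near copy and overlapping genes bear on these counts. Tyms-ps, a copy of Tyms listed as a gene of its own, had 10 UMIs in 10 cells, of which 3 also had Tyms. Whether the counting used strand is not given in the sources used here. The annotated genes that overlap these 10 genes on either strand were not rows of the table.

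Paralogs of these genes were measured too, and they are not a set of resting-cell genes. In the few cells with at least 3 restricted genes their list stood at 2.13 times (1.52 to 2.91) its level in cells with 0 in Treg. In Tconv it stood at 2.83 times (2.15 to 3.66). Of 16 measured paralogs, 3 were at least 2-fold higher in Treg and 0 were at least 2-fold lower, with a median log2 ratio of -0.03. H2afy, another histone H2A variant gene, was higher in Treg at 0.59 (0.43 to 0.76), and Top2b, the topoisomerase II of non-dividing cells, was at 0.01. Hmgb1 was at -0.18, Hmgn2 at -0.22 and Tuba1a at -0.09. Nucleotide synthesis genes other than Rrm2 and Tyms were nearly equal, with a median log2 ratio of -0.02 over 19 genes, 0 higher and 1 lower by at least 2-fold.

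Other cell cycle genes, 50 of S phase and 64 of G2 and mitosis, gave medians close to that of all genes. Of 29 measured S phase genes, 2 were at least 2-fold higher in Treg and 1 was at least 2-fold lower, with a median log2 ratio of 0.20. Ung, a uracil glycosylase of DNA repair, was the lower at -1.10 (-2.13 to -0.16). Of 23 measured G2 and mitosis genes, 1 was at least 2-fold higher and 4 were at least 2-fold lower, with a median of -0.01. The condensin gene Ncapd2 was the higher at 1.56 (0.53 to 2.69). Kif23 and Tacc3, both of the mitotic spindle, were among the lower at -3.01 (-6.14 to -0.99) and -2.55 (-4.93 to -0.83). Kif23 had 2 Treg UMIs and 22 Tconv UMIs, and Tacc3 had 3 Treg UMIs and 24 Tconv UMIs. D-type cyclin, CDK and RB-E2F genes had a median of 0.22, CDK inhibitor and quiescence genes 0.09, replication-dependent histone genes 0.20 and growth genes 0.07. Among them, Rb1, which restrains E2F factors, stood at 1.33 (0.73 to 1.94), and Ccnd3, a D-type cyclin, stood at -0.63 (-0.91 to -0.37).

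Most cells with a restricted gene had only 1 of the 6. In Treg, 656 cells (80.4%) had 0 restricted genes, 17.4% of cells had 1, 16 cells had 2, 0 had 3 and 2 had 4. In Tconv, 963 cells (74.1%) had 0, 23.6% of cells had 1, 27 cells had 2, 3 had 3 and 0 had 4. Cells with at least 2 restricted genes thus made up 18 of 816 in Treg (2.21%, 1.31 to 3.46) and 30 of 1300 in Tconv (2.31%, 1.56 to 3.28). These shares differed by less than their counting intervals. Cells with at least 3 made up 0.245% of Treg (0.0297 to 0.883) and 0.231% of Tconv (0.0476 to 0.673). By the same exact intervals, the 0 Treg cells with exactly 3 allow a share of up to 0.451%, and the 0 Tconv cells with 4 allow up to 0.283%. After each cell was thinned to 1000 UMIs, which left 738 Treg cells and 1108 Tconv cells, at least 2 restricted genes were seen in 8 Treg cells (1.08%) and 5 Tconv cells (0.451%). At 500 UMIs the order turned round, with 0.251% of Treg cells and 0.618% of Tconv cells, so neither library can be called higher. The libraries hold no cell type known to lack these genes, so the share of cells that free RNA alone would mark was not measured.

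**Figure D2:**
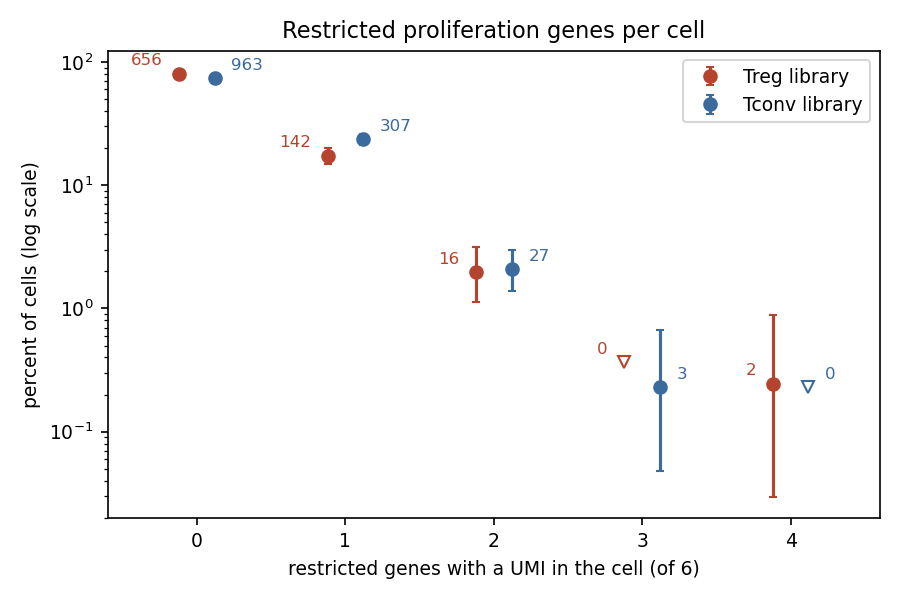
Percent of cells, on a log axis, by the number of restricted genes with a UMI, with Treg left of Tconv, exact 95% binomial intervals and the number of cells beside each point. Open triangles stand for a count of 0 and are drawn at a floor of 3 cells, 0.368% of Treg and 0.231% of Tconv. Both libraries fall from over 74% of cells with 0 genes to 2 Treg cells with 4 genes and 3 Tconv cells with 3 genes.

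Pcna set most of these numbers. It was seen in 13.1% of Treg cells and 18.2% of Tconv cells, against 0.615% to 6.62% of cells for the other restricted genes in the 2 libraries. Hmgb2, counted as broad, was seen in 17.6% of Treg cells and 18.2% of Tconv cells. The split into restricted and broad genes therefore does not follow the share of cells with a UMI. Of the cells with Pcna, 85.05% in Treg and 89.03% in Tconv had none of the other 5 restricted genes. Single cells reached 14 Pcna UMIs in Treg and 16 in Tconv, and 26 Treg cells and 41 Tconv cells had at least 5. Over thinned cells its variance was 2.88 times its mean in Treg and 2.76 times in Tconv, so its UMIs came in clumps and intervals that take UMIs as independent are too narrow. Of the 18 Treg cells with at least 2 restricted genes, 16 had Pcna and 14 had Pcna with exactly 1 other. Of the 30 such Tconv cells, 26 had Pcna and 24 had Pcna with exactly 1 other, most often Stmn1 (15 cells).

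In cells thinned to the same number of UMIs, restricted genes met in the same cell too seldom to be told from their separate frequencies. In thinned cells, the 15 pairs were seen together 8 times in Treg, where independence would give 5.34, a ratio of 1.499 (0.647 to 2.95). In Tconv they were seen together 5 times, where independence would give 11.5, a ratio of 0.436 (0.142 to 1.02). Both intervals include 1. With all UMIs the ratio was 2.25 (1.49 to 3.25) in Treg and 1.29 (0.901 to 1.78) in Tconv, a count that also carries the spread of depth between cells. The 2 Treg cells with 4 restricted genes each entered it as several pairs. The intervals take pairs as independent, so they are too narrow here. By gene, Pcna and Stmn1 met in 8 Treg cells, where independence would give 2.75, and in 16 Tconv cells, where it would give 15.7. Top2a and Stmn1 met in 5 Tconv cells, where independence would give 1.13, and in 2 Treg cells, where it would give 0.180. Those 2 Treg cells are the ones with 4 restricted genes. Rrm2 and Tyms, which act in the same supply of nucleotides, met in 0 cells of either library, where independence would give 0.489 in Treg and 0.0923 in Tconv, too few to be read. Pairs of a restricted with a broad gene were seen together at 1.16 times the independent number in thinned Treg cells and 1.12 times in thinned Tconv cells.

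In Tconv, cells with Pcna as their only restricted gene carried other cycle genes at about the level of cells with none. In Treg such cells carried more S phase RNA and less G2/M RNA. The measure was the summed S phase and G2/M lists, which hold none of the 10 genes. In the Tconv cells with Pcna as the only restricted gene, the S phase list stood at 0.985 times (0.873 to 1.11) and the G2/M list at 1.04 times (0.923 to 1.17) its level in the 963 cells with 0. In the 91 such Treg cells, the S phase list stood at 1.27 times (1.10 to 1.46) and the G2/M list at 0.857 times (0.742 to 0.985) its level in the 656 cells with 0. Pcna alone therefore went with slightly more S phase RNA in Treg, and with no measurable difference in Tconv. In cells with no other restricted gene, the S phase list was at 1052, 1132, 1546 and 1484 CPM in Treg with 0, 1, 2 to 4 and at least 5 Pcna UMIs. In Tconv it was at 975, 986, 882 and 1028 CPM over the same steps. The Treg values were higher from 2 Pcna UMIs on, and the intervals of the Tconv values overlapped throughout. Growth genes stood at 1.002 times (0.929 to 1.08) their level in cells with 0 in the Treg cells with Pcna alone and at 1.33 times (1.26 to 1.40) in the Tconv cells.

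For the other restricted genes alone, the cycle lists were near or below their level in cells with 0, with Rrm2 in Tconv above it. For the 66 Tconv cells with Stmn1 as the only restricted gene, the S phase list stood at 1.03 times (0.835 to 1.25) and the G2/M list at 0.933 times (0.747 to 1.15) its level in cells with 0. Mki67 was alone in 5 Treg cells and 6 Tconv cells, where the G2/M list stood at 0.611 times (0.333 to 1.03) and 0.542 times (0.199 to 1.18) its level in cells with 0. Tyms was alone in 14 Treg cells and 8 Tconv cells, with the S phase list at 0.604 times (0.329 to 1.02) and 0.794 times (0.395 to 1.42). Top2a was alone in 4 Treg cells and 8 Tconv cells, with the G2/M list at 0.880 times (0.454 to 1.54) and 0.441 times (0.143 to 1.03). With Rrm2 alone the S phase list stood at 0.635 times (0.392 to 0.976) in 17 Treg cells and at 1.85 times (1.18 to 2.77) in 8 Tconv cells. Without 1 Tconv cell that gave 9 of the 24 S phase UMIs, the Tconv ratio was 1.45 (0.812 to 2.41), which includes 1. Each of these small groups had a median of at most 2 S phase genes per cell.

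The same cells were read for genes outside the cycle. In the 5 Treg cells with Mki67 alone, growth genes stood at 2.41 times (2.06 to 2.80) and effector or memory genes at 1.92 times (1.57 to 2.31) their level in cells with 0. Each value rested on 1 cell: without the cell with most UMIs of the list they were 0.579 (0.378 to 0.849) and 1.04 (0.755 to 1.40). In the 6 Tconv cells with Mki67 alone, growth genes stood at 1.02 times (0.753 to 1.36) and effector or memory genes at 1.79 times (1.28 to 2.45). With Top2a alone, growth genes stood at 0.872 times (0.628 to 1.18) in the 8 Tconv cells, and effector or memory genes at 1.07 times (0.755 to 1.48) in the 4 Treg cells and 2.23 times (1.66 to 2.94) in the Tconv cells. Without the top cell the effector or memory values in Tconv were 1.60 (1.07 to 2.31) for Mki67 and 1.78 (1.23 to 2.49) for Top2a. In cells with Stmn1 alone, effector or memory genes stood at 0.705 times (0.526 to 0.927) in the 11 Treg cells and 0.795 times (0.673 to 0.933) in the 66 Tconv cells. Resting T cell genes in them stood at 1.79 times (1.45 to 2.19) in Treg and 0.976 times (0.889 to 1.07) in Tconv. These groups are small, and the intervals cover counting error within them, not the spread between cells.

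Where all cells with a gene were taken, ratios were also computed without the cell with most UMIs of the list. That cell was left out of the cells with the gene only, so a smaller ratio is largely built in. In 6 cases of restricted genes an interval that lay above 1 then included 1. In Tconv cells with Mki67 the G2/M list stood at 4.99 times its level in cells without, and at 0.682 times (0.327 to 1.26) once cell 794 was left out. In Tconv cells with Top2a it stood at 3.86 times, and at 1.81 times (1.38 to 2.33) without that cell. In Treg cells with Rrm2 the S phase list stood at 1.98 times, and at 0.797 times (0.547 to 1.12) without cell 557. In Treg cells with Top2a it stood at 4.38 times, and at 2.34 times (1.65 to 3.23) without the same cell. Their G2/M list stood at 1.54 times (1.12 to 2.08) with that cell, and at 0.897 times (0.531 to 1.42) without it. In Treg cells with Mki67 the S phase list stood at 1.79 times (1.28 to 2.42), and at 0.853 times (0.504 to 1.35) without cell 1. In Tconv cells with Rrm2 it stood at 1.58 times (1.03 to 2.33), and at 1.24 times (0.719 to 1.99) without 1 cell. In Tconv cells with Stmn1 it stood at 1.18 times (1.002 to 1.38), and at 1.04 times (0.878 to 1.23) without cell 625. In Treg cells with Stmn1 the S phase list stood at 2.79 times, and at 1.95 times (1.58 to 2.38) without cell 557. For the broad genes, ratios over cells without the gene ran closer to 1: in Tconv, Hmgb2 gave 1.40 for the G2/M list and 1.18 without cell 794.

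**Figure D3:**
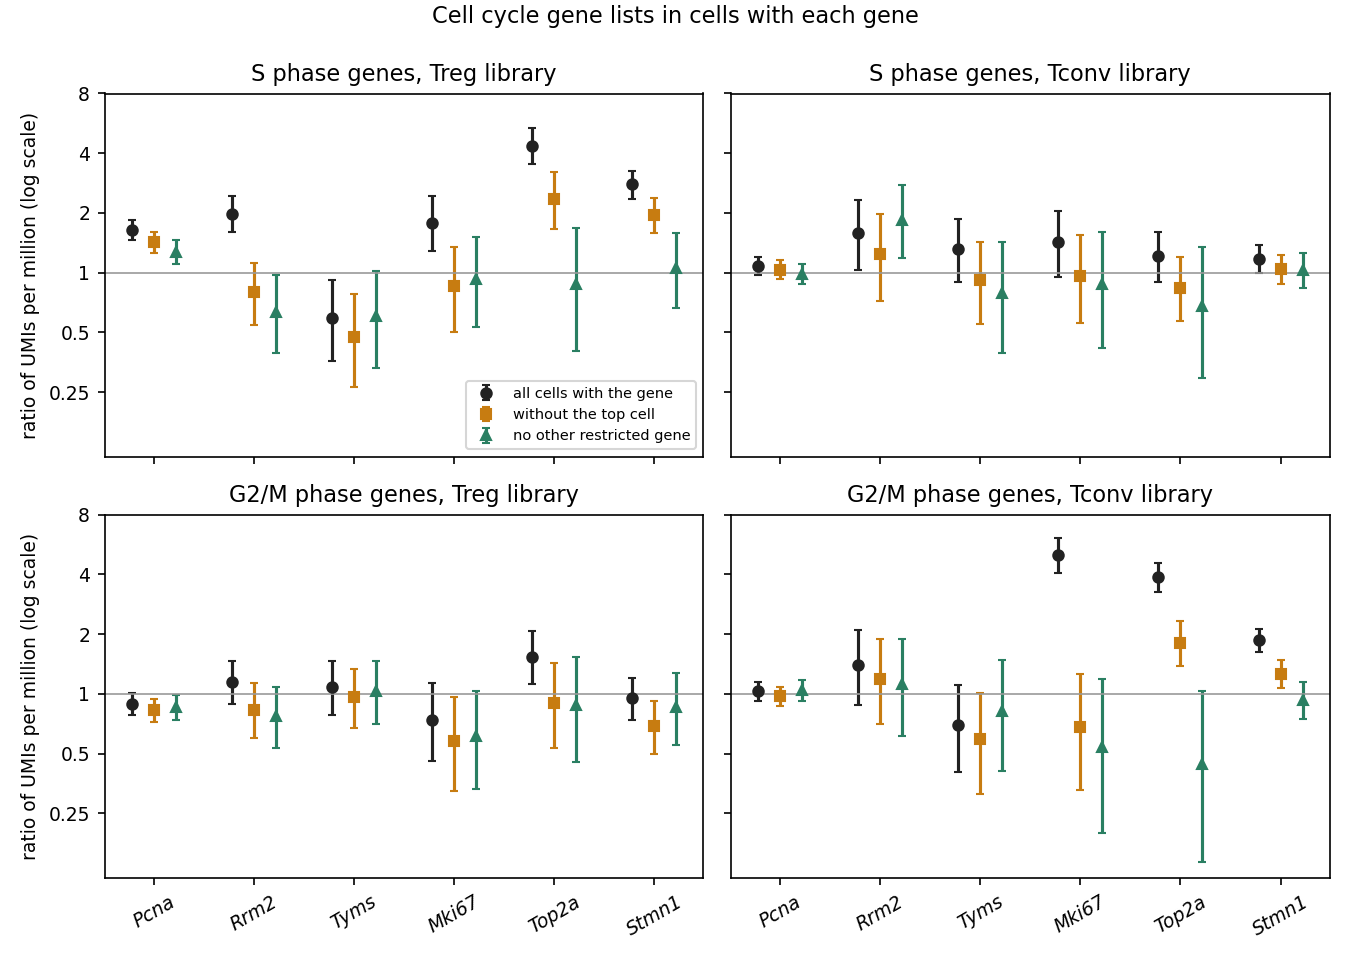
Ratio of the S phase list (top) and G2/M list (bottom) on a log axis, Treg left and Tconv right, for cells with each restricted gene. Circles compare all cells with the gene to cells without it, squares leave out the 1 cell with most UMIs of the list, triangles compare cells with only that restricted gene to cells with 0, and bars are exact 95% intervals. The Mki67 circle for G2/M in Tconv is at 4.99 and its square at 0.682.

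Taken as a group, cells with at least 2 restricted genes held more S phase RNA in Treg and more G2/M RNA in Tconv, where 3 cells carried most of the difference. In Treg the S phase list in the 18 cells with several stood at 3.06 times (2.57 to 3.61) its level in cells with 0, and the G2/M list stood at 0.962 times (0.740 to 1.23). In Tconv the S phase list stood at 1.59 times (1.30 to 1.92) and the G2/M list in the 30 cells with several at 2.77 times (2.37 to 3.22). Without the cells that held at least 3 restricted genes, the S phase and G2/M ratios were 1.65 (1.28 to 2.10) and 0.652 (0.457 to 0.903) in Treg and 1.46 (1.17 to 1.81) and 1.23 (0.965 to 1.56) in Tconv, so the last includes 1. The S phase ratio in Tconv was 1.16 (0.796 to 1.65) in cells thinned to 1000 UMIs and 1.16 (0.880 to 1.51) without cells with markers of other types, which both include 1. Much of the lists' RNA in cells with 0 came from few genes: Smc4, Cenpf, Spc24 and Cenpa gave 71.8% of G2/M list UMIs in those Treg cells and 67.1% in those Tconv cells. Smc4, a condensin subunit, had 892 Treg UMIs and 609 Tconv UMIs over all cells.

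Outside the cycle, the summed lists of cells with several restricted genes showed more effector RNA and less RNA of resting T cells. Growth RNA was also higher, but much of it came from few cells. Growth genes stood at 1.44 times (1.28 to 1.62) their level in cells with 0 in Treg and 1.65 times (1.501 to 1.81) in Tconv. Effector or memory genes stood at 1.47 times (1.29 to 1.67) in Treg and 2.32 times (2.06 to 2.60) in Tconv. Resting T cell genes stood at 0.653 times (0.519 to 0.811) in Treg and 0.635 times (0.555 to 0.724) in Tconv. CDK inhibitor and quiescence genes stood at 0.681 times (0.560 to 0.819) in Treg and 0.870 times (0.758 to 0.993) in Tconv. T lineage genes were close to level in Treg at 0.942 times (0.818 to 1.08) and lower in Tconv at 0.839 times (0.749 to 0.938). Markers of other cell types moved with these values in Tconv but not in Treg. At least 3 UMIs of such a list were seen in 2 of the 18 Treg cells (11.1%, against 12.8% of cells with 0) and in 5 of the 30 Tconv cells (16.7%, against 5.09% of cells with 0). In Tconv, cell 190 gave 95.6% of the myeloid list UMIs of cells with several, and cell 1132 gave 58 of their 64 B cell list UMIs. In Treg the B cell list had 12 UMIs and the myeloid list 3, at 0.320 times and 0.176 times their level in cells with 0. The growth and effector ratios without Tconv cells 190 and 1132 were not tested. Nor was the growth ratio without the single Treg cells that gave most growth UMIs.

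Gene by gene, the 48 cells with several restricted genes of both libraries were set against the 1619 cells with 0. The cycle genes that stood out were 2810417H13Rik, the PCNA-binding factor gene, with 21 UMIs in 9 of the 48 cells at 13.1 times (7.21 to 23.3), and Ube2c, a ubiquitin-conjugating enzyme gene of mitotic exit, with 12 UMIs in 4 cells at 11.2 times (5.07 to 23.7). Nek2, a centrosome kinase gene, had 15 UMIs, all in Tconv cell 794. Fn1, Lyz1, Lyz2 and BC049730 were each seen in 1 of the 48 cells, Tconv cell 190, and Lgals3 mostly there. Cd24a was seen in Tconv cell 1132 alone. Ccr2, a chemokine receptor gene, had 20 UMIs in 4 cells, 8 of them in Tconv cell 190. Kctd17 had 10 UMIs in 3 Treg cells, 8 of them in 1 cell. On the lower side, Smad4 stood at 0.185 times (0.0502 to 0.477), with 4 UMIs in cells with several and 445 in cells with 0. Papola stood at 0.165 times, Cast at 0.0862 times, Rhoh at 0.349 times (0.180 to 0.614) and Apbb1ip at 0.326 times (0.156 to 0.604). Jchain had 0 UMIs in cells with several and stood at most at 0.167 times its level in cells with 0. Among the Tconv cells with 0, a single cell held 395 of the 433 UMIs of the plasma cell list, which includes Jchain.

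Only a handful of cells held many restricted genes together with many other cycle genes. The median number of other cycle genes per cell was 2 in Treg and 2 in Tconv cells with 0 restricted genes, 3 and 2 in cells with 1, and 3.5 and 3 in cells with 2. The 2 Treg cells with 4 restricted genes had 15 and 36, and the 3 Tconv cells with 3 had 13 to 39. Cells with at least 10 other cycle genes numbered 8 in Treg (0.980%, 0.424 to 1.92) and 9 in Tconv (0.692%, 0.317 to 1.31). Of these, 4 in Treg and 7 in Tconv had at least 2 restricted genes, and 3 in Treg and 4 in Tconv had at least 3 UMIs of another cell type's list. The cells were deep, with a median of 5440 UMIs in Treg and 3947 in Tconv.

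**Figure D4:**
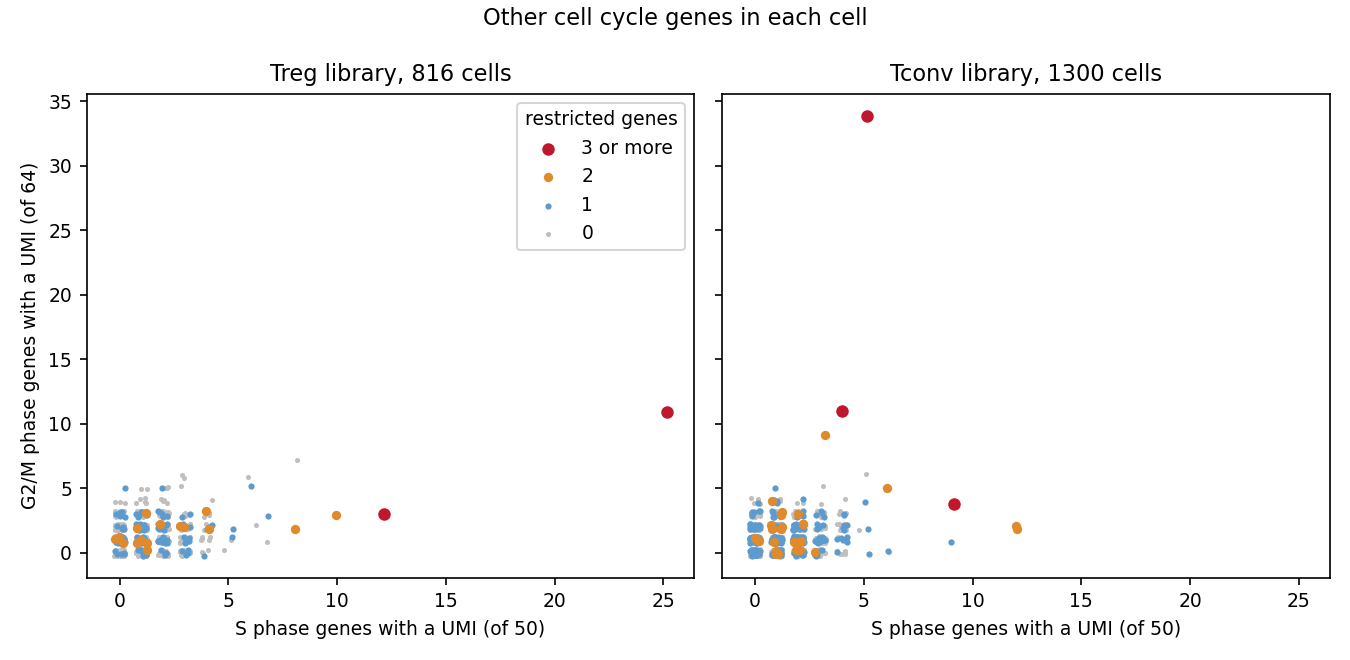
Number of S phase genes against number of G2/M genes with a UMI in each cell, Treg left and Tconv right, with points spread slightly at random so that they can be told apart, and coloured by the number of restricted genes. The 5 cells with 3 or more restricted genes lie away from the mass, with 36 other cycle genes in 1 Treg cell and 39 in 1 Tconv cell.

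In Treg the fullest cell was of the S phase kind. Cell 557, with 6292 UMIs, had 8 of the 10 genes, 25 S phase genes with 63 UMIs and 11 G2/M genes with 26 UMIs. Its S phase genes included Mcm3, Mcm5 and Mcm7 of the replicative helicase, Clspn of the replication checkpoint, Rrm1 and Dut of nucleotide supply, Exo1 and E2f1. It had 27 Tuba1b and 20 Tubb5 UMIs, the highest count of either gene in the library. It had 0 Foxp3, 10 Izumo1r, 3 Ikzf2 and 2 Ctla4 UMIs, 29 T lineage UMIs and 3 UMIs of the B cell list. Cell 1, with 2141 UMIs, had 8 of the 10 genes, 12 S phase genes and 3 G2/M genes, 1 Foxp3 UMI and 43 UMIs of effector or memory genes, 9 of them Itgb1. Another cell, with 7330 UMIs, had 14 Pcna UMIs, 7 Stmn1 UMIs and 10 S phase genes, with 4 Foxp3 and 28 Izumo1r UMIs and 6 UMIs of the B cell list. All 3 cells carried RNA of the Treg signature list, with 30, 3 and 65 UMIs.

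In Tconv 2 of the 3 cells with 3 restricted genes held mostly G2/M genes and the other mostly S phase genes. Cell 794, with 6004 UMIs, the most of any cell in its library, had 34 G2/M genes with 92 UMIs and 5 S phase genes with 7. Its mitotic genes included Plk1, Ccnb1, Cdk1, Bub1b, Birc5, Kif11 and Tpx2, and it had 19 Hmgb2, 9 Stmn1, 4 Mki67 and 3 Top2a UMIs and 0 of Pcna. It had 17 T lineage UMIs, 6 of them Cd4, and 23 UMIs of the plasmacytoid dendritic list, of which Ccr9 gave 15 and Ly6c2 gave 7. Cell 1203, with 762 UMIs, had 11 G2/M genes with 24 UMIs, 8 Hmgb2 UMIs and 24 UMIs of replication-dependent histone genes, 9 of them Hist1h2ao, but 1 T lineage UMI. Cell 874 had 9 S phase and 4 G2/M genes with 7 T lineage UMIs. Below 3 restricted genes, cell 625 had 12 S phase genes, 8 Pcna and 14 Izumo1r UMIs, and cell 423 had 9 G2/M genes, 14 H2afz and 12 Hmgb2 UMIs with 28 T lineage UMIs.

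**Figure D5:**
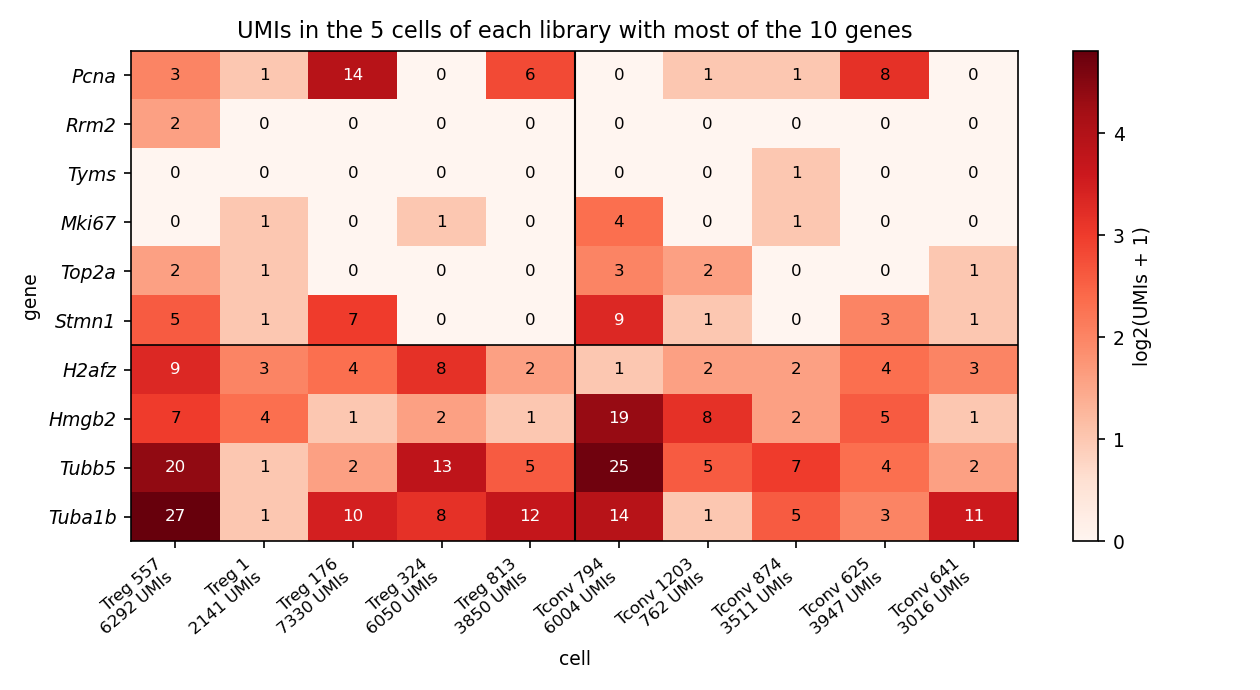
UMIs of each gene (rows) in the 5 cells of each library with most of the 10 genes (columns, Treg left and Tconv right, with each cell's total UMIs), shaded by log2(UMIs + 1). The broad genes fill most columns, and the highest restricted count in a column is 14 Pcna UMIs, in a Treg cell.

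Foxp3 was read in the same classes of cells. Among Treg cells, 35.7% of those with 0 restricted genes, 37.3% of those with 1 and 56.2% of those with 2 (9 of 16 cells) had a Foxp3 UMI, and the last of these shares rests on few cells. The Treg signature list as a whole stood at 1.07 times (0.940 to 1.22) in Treg cells with several against those with 0. In Tconv it stood at 2.40 times (1.81 to 3.14), with 61 UMIs in the 30 cells, of which cell 625 gave 21. Of these 30 Tconv cells, 0 had a Foxp3 UMI.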

How the data were processed

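The deposited values are raw counts of UMIs for each gene in each cell. TopHat2, SAMtools and mm10 appear in the submitters' processing notes, and no source used here gives the annotation, the UMI counter, the strand setting or how cells were selected. Cells were grouped by title, with TR and TC read from the series title. UMIs were summed per library and scaled to CPM, with exact Poisson, conditional and Clopper-Pearson 95% intervals and a floor of 3 counts over a library or group of cells. Genes with at least 20 UMIs were counted, and 2-fold was the call. Cells were thinned to 1000 UMIs, leaving out 78 Treg and 192 Tconv cells. Doublets were called with Scrublet in scanpy 1.11.5 and TMM factors came from edgeR 4.0.16. No doublet was removed except in an alternative. Ratio intervals and pair counts were tested on simulated data whose UMIs and detections were independent by design. That test therefore does not cover clumped UMIs or uneven depth. Thinning was tested on simulated counts.

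The 10 genes, the lists and the alternatives were chosen with earlier results of these data known. The text names all 10 genes, up to 4 genes with most UMIs of a list, the 12 genes in each direction whose ratio in cells with several restricted genes over cells with 0 had the interval bound farthest from 1, and up to 5 cells per library with most of the 10 genes. Genes of ribosomal proteins and of T cell receptor variable segments were not named. Outside that rule, Ung, Ncapd2, Kif23, Tacc3, Rb1 and Tuba1a, the Tyms copy, marker genes and cycle genes of single cells, and cells 859, 190, 1132 and 423 were chosen after their values were seen. Of the 12 lower genes, Dctn1, Mgst2, Ino80d, Ubr2, Tcp11l2 and Pcmtd1 are named only here. Some items that the rule selects are not reported here.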

Additional observations from a re-analysis of the deposited data

How the results depend on the processing

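Of 110 alternative ratios of single genes, 5 left the reported interval and 0 changed the sign of a gene called 2-fold, while 50 of 55 kept a 2-fold call. Leaving out cells with shared barcodes or called doublets kept every recomputed value within its interval. With ribosomal protein genes left out of the totals the 4 broad genes stood at a log2 ratio of 0.075, and with TMM factors at 0.052. The percent of cells with several restricted genes, in Treg and in Tconv, was 1.08 and 0.451 after thinning to 1000 UMIs, 0.251 and 0.618 after thinning to 500, 19.6 and 25.9 for at least 1 gene, 0.245 and 0.231 for at least 3, 4.66 and 6.15 for at least 4 of all 10, 1.23 and 0.923 without Stmn1, and 0.490 and 0.462 without Pcna. Pairs in Tconv were at 1.29 times the independent number without thinning and 1.39 at 500 UMIs. The S phase ratio of cells with several over cells with 0, in Treg and in Tconv, was 2.45 and 1.16 at 1000 UMIs, 9.80 and 2.39 for at least 3 genes, and 1.97 and 1.16 without cells with markers of other types. The G2/M ratio was 1.77 in Tconv at 1000 UMIs, 2.45 and 12.4 for at least 3 genes, and 1.42 in Tconv without cells with markers of other types. Alternatives chosen after seeing the data gave an S phase ratio of 2.10 in Treg without the top cell, 1.65 in Treg without cells with at least 3 genes, and 4.27 and 2.01 without the 4 most abundant genes of the list. They gave a G2/M ratio of 0.669 and 1.59 without the top cell, 0.652 and 1.23 without cells with at least 3 genes, and 1.497 and 6.18 without the 4 most abundant genes. The values without 1 cell for cells with 1 restricted gene alone, and those by Pcna UMIs without other restricted genes, were also chosen after seeing the data. The cause was not tested where it is not the smaller set of cells or genes.

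Counts of 8 to 36 UMIs limit Rrm2, Tyms, Mki67, Top2a and, in Treg, Stmn1, and thinning draws UMIs at random. No paired analysis was possible because each population has 1 library. UMIs of Pcna, Stmn1, Rrm2 and the 4 broad genes, and of Top2a in Tconv, came in clumps within cells, so intervals on their sums are too short. Over thinned cells the variance of Rrm2 was 1.35 times its mean in Treg and 1.33 times in Tconv. That of Top2a was 2.08 times its mean in Tconv. Tyms showed no clumping. Mki67 was seen in 3 thinned Treg cells and 2 thinned Tconv cells, too few to show clumping, and cell 794 held 4 of its 11 Tconv UMIs.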

Other observations

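Some cells held many other cycle genes without any restricted gene. The deepest Treg cell, with 8221 UMIs, had 8 S phase genes with 20 UMIs and 7 G2/M genes with 16 UMIs, and Treg cell 577, with 5453 UMIs, had 6 of each. In Tconv, cell 918, with 2950 UMIs, had 5 S phase and 6 G2/M genes. Treg cell 701 had 11 other cycle genes and 4 Pcna UMIs beside 82 Lyz1 and 36 Lyz2 UMIs, both myeloid genes, and 0 T lineage UMIs.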
